A study of Atriplex lentiformis with 8 samples.

Results

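The genes described here make, use and break down myo-inositol, galactinol and raffinose in leaves of quailbush (Atriplex lentiformis), a C4 shrub that tolerates salt. They were chosen by name, as 9 Arabidopsis genes: the galactinol synthases GOLS1 (AT2G47180), GOLS2 (AT1G56600) and GOLS4 (AT1G60470), raffinose synthase RS5 (AT5G40390), SIP2 (AT3G57520), the inositol phosphate synthases MIPS1 (AT4G39800) and MIPS2 (AT2G22240), and the inositol oxygenases MIOX1 (AT1G14520) and MIOX4 (AT4G26260). An assembled transcript belonged to a gene when its best protein match in Arabidopsis was that gene. Of the 46492 transcripts, 17 matched 5 of the 9 genes: 13 matched SIP2, and GOLS1, GOLS2, RS5 and MIOX1 had 1 each. No row analysed here had GOLS4, MIPS1, MIPS2 or MIOX4 as its best match. Plants grew in 2 chambers, one at 23 °C in the day and 18 °C in the night, the other at 43 °C and 30 °C, both with a 16-hour photoperiod, a light intensity of 120 microeinsteins and a label of 8 weeks. The labels call the cool leaves 16:3 and the hot leaves 18:3 in lipid phenotype, and each temperature had 4 libraries from biological replicates. Chamber and temperature cannot be told apart in this design.

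Myo-inositol is made from glucose 6-phosphate by an inositol phosphate synthase and a phosphatase. Galactinol synthase joins it to galactose from UDP-galactose, and raffinose synthase then moves that galactose onto sucrose, which frees the inositol again. Galactinol and raffinose are known as compatible solutes and protectants in leaves under heat, drought, salt and cold, and in some plants they are also loaded into the phloem. In another branch, inositol oxygenase opens the ring of myo-inositol to glucuronic acid, which feeds the nucleotide sugars of the cell wall.

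Transcript levels are given as FPKM, by definition fragment numbers corrected for transcript length and library size. Levels of different genes are set side by side here on that definition. Multiplied by length in kilobases and summed, the FPKM of the cool leaves gave 1084419, more than the definition allows. Ratios between different genes are therefore approximate. How the authors computed and scaled FPKM is not stated in the sources used here. Each FPKM is the authors' mean for one temperature, with no value per library and therefore no SD, and depth is unknown. Higher or lower at 43 °C means that the authors' deposited table lists an adjusted p below 0.05. Matching names a gene family member by similarity and does not show orthology.

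At 43 °C the inositol oxygenase transcript and both galactinol synthase transcripts were higher, and the raffinose synthase transcript was slightly lower, a call that ended when both columns were scaled to one total. Of the 17 transcripts, 5 rose (29.4%), 2 fell (11.8%) and 10 did not pass, against 20.7% higher and 17.8% lower (38.5% together) among all transcripts. Taking the most abundant transcript of each gene, 4 of the 5 genes rose and 1 fell, against 26.9% higher and 30.9% lower (57.7% together) among the 12468 matched Arabidopsis loci. By the authors' deposited table the median log2 change was 0.27 over the 17 transcripts and 0.10 over all transcripts; for the most abundant transcripts it was 1.34 over the 5 genes and -0.01 over all matched loci. Weighted by transcript length in kilobases, all FPKM of the cool leaves totalled 1084419 and those of the hot leaves 909555. Making those totals equal would add 0.25 to every log2 change, and setting the median of all transcripts to 0 would subtract 0.10. No listed gene other than RS5 lost its call under either scaling.

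**Figure D1:**
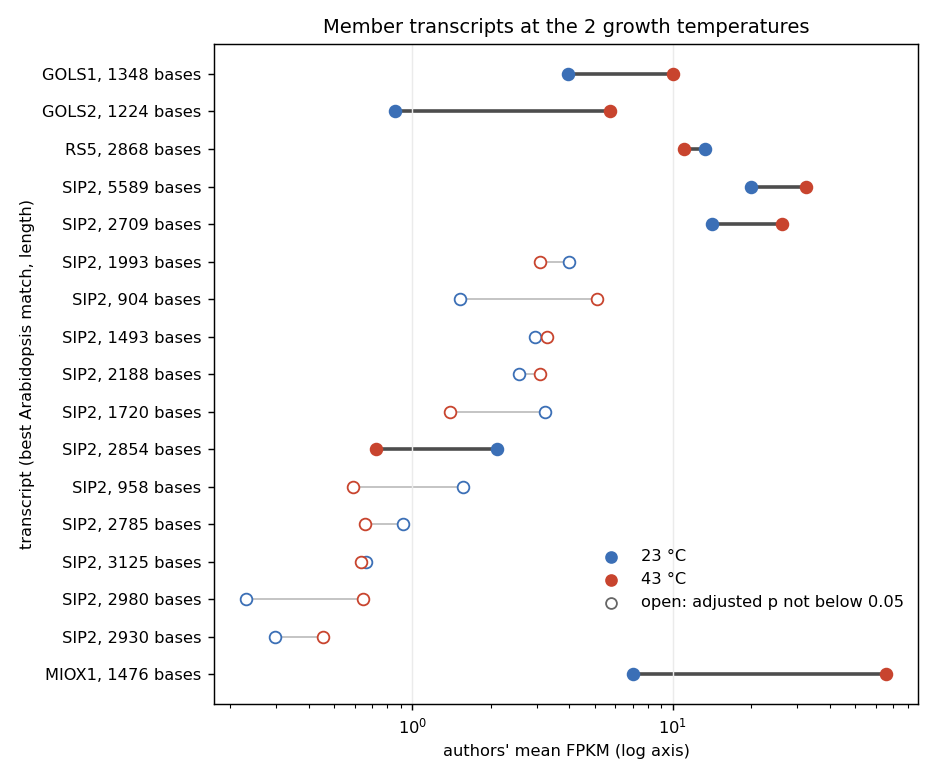
Authors' mean FPKM (log axis) of each of the 17 transcripts at 23 °C (blue) and 43 °C (red), labelled by best Arabidopsis match and length in bases; filled points passed at an adjusted p below 0.05. MIOX1 moved from 7.01 to 66.0 FPKM and GOLS2 from 0.858 to 5.72 FPKM, whereas RS5 moved from 13.3 to 10.98 FPKM and most of the less abundant SIP2 transcripts did not pass.

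Galactinol synthase commits myo-inositol to the raffinose family of sugars. The GOLS1 transcript, 1348 bases long, had 3.94 FPKM in the cool leaves and 10.04 FPKM in the hot leaves, a 2.55-fold difference. The authors' deposited table lists a log2 change of 1.34 for GOLS1 with an adjusted p of 1.42e-06. In Arabidopsis this gene is known to be induced by heat.

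The GOLS2 transcript, 1224 bases long, was scarcer, at 0.858 FPKM in the cool leaves and 5.72 FPKM in the hot leaves. The authors' deposited table gives this 6.67-fold rise as a log2 change of 2.70 with an adjusted p of 2.41e-09. Multiplied by its length in kilobases, the GOLS2 level was 1.05 at 23 °C and 7.001 at 43 °C, on the scale of the column totals above. Recomputed from the FPKM values, the log2 change of GOLS2 was 1.86 with a pseudocount of 1 and 0.87 with a pseudocount of 5. Arabidopsis GOLS2 is best known from drought and salt stress. The difference between the changes of GOLS1 and GOLS2 was not tested.

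Both galactinol synthase transcripts thus moved the same way. Their sum was 4.80 FPKM in the cool leaves and 15.8 FPKM in the hot leaves, a 3.29-fold difference. GOLS1 held 82.1% of that sum at 23 °C and 63.7% at 43 °C, and GOLS2 the rest. These were the only rows that the deposited annotation describes as galactinol synthase, and none of the other 5 galactinol synthase genes looked for (GOLS3, GOLS5, GOLS6, GOLS7 and GOLS10) had a match.

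RS5 is the main raffinose synthase of stressed Arabidopsis leaves and acts directly after galactinol synthase. Its transcript, 2868 bases long, had 13.3 FPKM in the cool leaves and 10.98 FPKM in the hot leaves. In the authors' deposited table RS5 has a log2 change of -0.28 with an adjusted p of 0.0383, close to the threshold. With equal totals the log2 change was -0.03 and no longer passed (adjusted p = 0.892), and RS5 also missed a threshold of 0.01. The sum of GOLS1 and GOLS2 was below RS5 at 23 °C and above it at 43 °C: RS5 had 2.77 times that sum in the cool leaves and 0.697 times in the hot leaves.

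SIP2, named for seed imbibition, belongs to the raffinose synthase family by sequence, but its Arabidopsis product has been characterised as an alkaline alpha-galactosidase that splits raffinose. Its most abundant transcript had 19.95 FPKM in the cool leaves and 32.3 FPKM in the hot leaves. The authors' deposited table lists a log2 change of 0.69 for it with an adjusted p of 1.13e-14. At 5589 bases it was the longest of the 13 SIP2 transcripts, the next having 3125 bases. The second most abundant, of 2709 bases, rose from 14.1 to 26.2 FPKM, for which the authors' deposited table has a log2 change of 0.89 and an adjusted p of 1.74e-13.

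The remaining 11 SIP2 transcripts were scarce, between 0.23 and 5.09 FPKM at either temperature. Of these, 1 fell, none rose and 10 did not pass. The one that fell, of 2854 bases, went from 2.12 to 0.723 FPKM; the authors' deposited table lists a log2 change of -1.54 and an adjusted p of 0.00389. The largest other difference in FPKM was that of a transcript of 904 bases, with 1.53 FPKM in the cool and 5.09 FPKM in the hot leaves. Its log2 change of 1.69 did not pass by the authors' deposited table (adjusted p = 0.0845). It passed with equal totals (adjusted p = 0.0405).

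The SIP2 transcripts that passed therefore did not all have one direction, and most did not pass. Over all 13 the sum was 54.1 FPKM in the cool and 78.2 FPKM in the hot leaves, with a log2 ratio of 0.53. The 2 most abundant held 63.0% of that sum in the cool leaves and 74.9% in the hot leaves, while the other 11 summed to 20.0 and 19.7 FPKM. Leaving out the transcript of 5589 bases, the rest summed to 34.2 and 45.9 FPKM, with a log2 ratio of 0.42.

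Within SIP2, 9 transcripts carry one name stem in the deposited table (comp54559_c0), among them the transcript of 2709 bases that rose and the one of 2854 bases that fell. The riser had 52.1% of the summed FPKM of these 9 at 23 °C and 76.2% at 43 °C. The other 8 went from 13.0 FPKM together to 8.19 FPKM, and 6 of them had a log2 change below 0. The sources used here do not say how reads were shared among overlapping transcripts, so a level of 1 such transcript is less certain than the sum. One SIP2 transcript, of 1493 bases, matched only weakly (E value 6.9e-11) and did not pass at 2.95 and 3.30 FPKM.

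**Figure D2:**
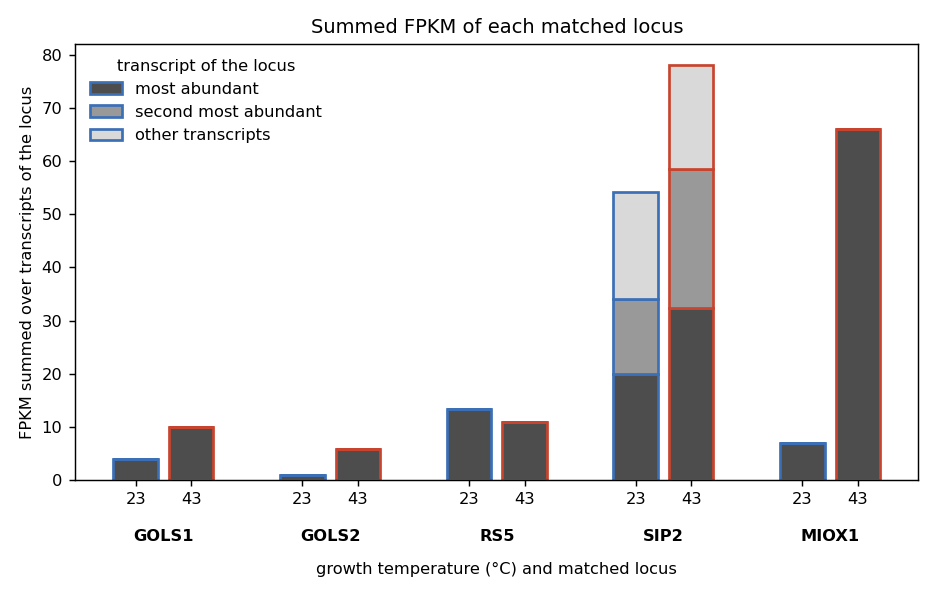
FPKM summed over the transcripts of each matched gene (y axis) at 23 °C (blue outline) and 43 °C (red outline), split by shade into the most abundant, the second most abundant and the other transcripts; values are authors' means and have no error bars. The SIP2 sum grew from 54.1 to 78.2 FPKM through its 2 most abundant transcripts, and MIOX1 grew from 7.01 to 66.0 FPKM through 1 transcript.

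MIOX1 encodes myo-inositol oxygenase, which removes inositol from the pool that galactinol synthase draws on. Its single transcript, of 1476 bases, had 7.01 FPKM in the cool leaves and 66.0 FPKM in the hot leaves. The authors' deposited table gives this 9.41-fold rise as a log2 change of 3.22 with an adjusted p of 3.35e-161. Multiplied by length in kilobases, the MIOX1 level went from 10.4 to 97.4. Among the most abundant transcripts of the 12468 matched loci, 236 had, in the authors' deposited table, a log2 change at least as high as that of MIOX1, 342 at least as high as that of GOLS2, 1131 at least as high as that of GOLS1 and 2486 at least as high as that of SIP2. No other row was described as an inositol oxygenase, and MIOX2 and MIOX5 had no match.

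The order of the listed genes by FPKM differed between the temperatures. By most abundant transcript it ran SIP2, RS5, MIOX1, GOLS1, GOLS2 in the cool leaves and MIOX1, SIP2, RS5, GOLS1, GOLS2 in the hot leaves. With its 13 transcripts summed, SIP2 came first at both temperatures, in the hot leaves at 78.2 FPKM against 66.0 FPKM for MIOX1. By sums MIOX1 still came after RS5 in the cool leaves and before it in the hot leaves. RS5 had 3.37 times the FPKM of GOLS1 at 23 °C and 1.09 times at 43 °C. Without values per library, whether neighbours in these orders differ beyond the spread between plants could not be tested.

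**Figure D3:**
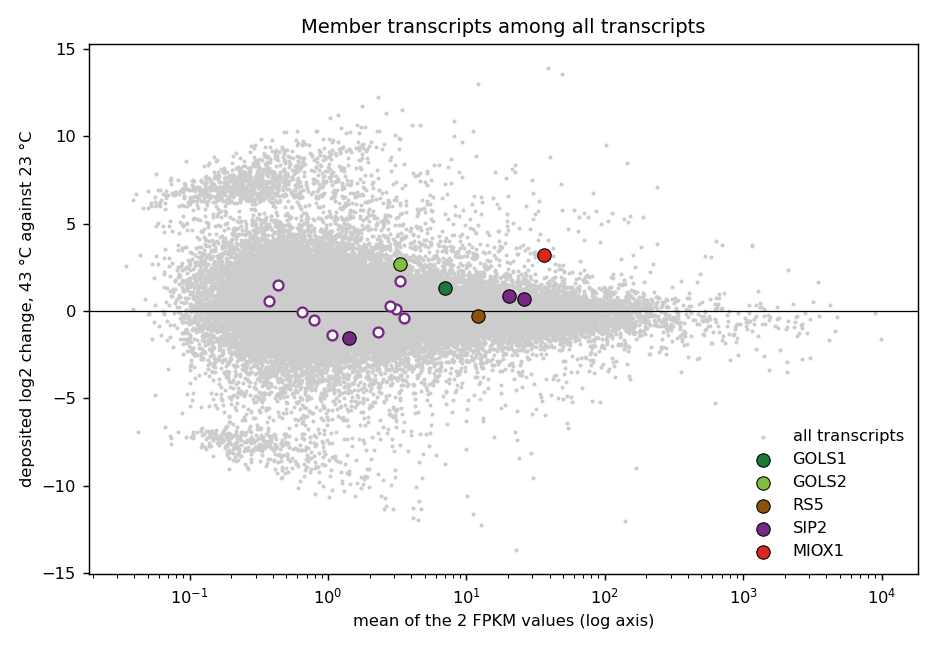
Deposited log2 change of 43 °C against 23 °C (y axis) against the mean of both FPKM values (log x axis) for all 46492 transcripts (grey) and the 17 transcripts of the listed genes (coloured; open where the adjusted p was not below 0.05). MIOX1 lies at a log2 change of 3.22 and GOLS2 at 2.70, and the scarce SIP2 transcripts scatter on both sides of 0.

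The wider pathway was covered by 45 further Arabidopsis genes, of which 27 had a match. By their most abundant transcripts 7 rose (25.9%), 11 fell (40.7%) and 9 did not pass, against the 26.9% higher and 30.9% lower among all matched loci. By the authors' deposited table their median log2 change was 0.08. Over all 96 of their transcripts 22 rose (22.9%) and 18 fell (18.75%), against 20.7% and 17.8% of all transcripts. The list as a whole therefore had no common direction, and its parts are given by role.

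On the supply side, the one transcript described as an inositol phosphate synthase matched MIPS3 and was the most abundant of the whole pathway. It rose from 97.3 to 136.7 FPKM, which the authors' deposited table gives as a log2 change of 0.48 with an adjusted p of 1.69e-08. At 23 °C the MIPS3 level was 13.9 times that of MIOX1, and at 43 °C 2.07 times. Of 3 genes of the inositol monophosphatase family, VTC4, which in Arabidopsis also acts in ascorbate synthesis, rose from 25.0 to 37.9 FPKM. IMPL1, a plastid enzyme, fell from 32.2 to 16.8 FPKM. IMPL2, counted here by family and not by a shown role in inositol supply, did not pass at 0.493 and 0.718 FPKM. UGE1, an epimerase that makes the UDP-galactose used by galactinol synthase, fell from 84.5 to 48.8 FPKM (by the authors' deposited table a log2 change of -0.80), and UGE4 (3.78 and 5.44 FPKM) and UGE5 (5.06 and 6.395 FPKM) did not pass. UGE4 passed as higher with equal totals.

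Around raffinose, the family members did not share a direction. RS4, a stachyose synthase, rose from 7.57 to 9.89 FPKM (by the authors' deposited table a log2 change of 0.38, adjusted p = 0.00423). DIN10, a family member induced by darkness in Arabidopsis, did not pass at 39.0 and 38.7 FPKM, with a log2 change of -0.02 that became 0.23 and passed with equal totals. Summed over RS5, SIP2, RS4 and DIN10, the family had 114 FPKM in the cool and 138 FPKM in the hot leaves. RS5 supplied 11.6% of this at 23 °C and 7.97% at 43 °C, and SIP2 47.5% and 56.7%. Among alpha-galactosidases, which also release galactose from raffinose, the main AGAL3 transcript rose from 22.9 to 47.3 FPKM while AGAL2 fell from 5.998 to 3.98 FPKM, and AGAL1 did not pass at 2.51 and 3.51 FPKM. With equal totals AGAL2 no longer passed and AGAL1 passed as higher. Another AGAL3 transcript, of 3799 bases, fell from 9.54 to 5.30 FPKM, and all 10 summed to 47.5 and 72.5 FPKM.

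Downstream of MIOX1, no gene rose by its most abundant transcript. GLCAK1, the kinase that phosphorylates glucuronic acid, did not pass at 9.52 and 10.1 FPKM. USP, the pyrophosphorylase that turns the product into UDP-glucuronic acid, fell in its main transcript from 21.5 to 10.5 FPKM. Of 22 USP transcripts, 8 scarce ones rose (36.4%, 3 of them listed at 0 at 23 °C), 1 fell (4.5%) and 13 did not pass. Among all transcripts 20.7% were higher and 17.8% lower. Most of the USP risers carry one name stem (comp54627_c3), and how reads were shared among them is not known. The USP sum went from 33.1 to 25.0 FPKM, a log2 ratio of -0.40 against -1.04 for the main transcript by the authors' deposited table. UDP-glucose dehydrogenases make UDP-glucuronic acid without inositol: UGD4 fell from 51.1 to 27.1 FPKM, and UGD2 (35.4 and 31.4 FPKM) and UGD3 (1.39 and 1.78 FPKM) did not pass. The log2 change of UGD2, listed as -0.18 by the authors' deposited table, became 0.07 with equal totals and passed as lower with the median of all transcripts set to 0 (-0.28).

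Both matched inositol transporters rose. INT4, which in Arabidopsis imports inositol across the plasma membrane, went from 1.17 to 10.9 FPKM, which the authors' deposited table gives as a log2 change of 3.20 with an adjusted p of 1.51e-37, and its 2 other transcripts rose too. Summed over the 3 transcripts, INT4 went from 3.195 to 18.8 FPKM, a log2 ratio of 2.56. The main transcript of INT1, the vacuolar transporter of Arabidopsis, rose from 15.6 to 19.1 FPKM (by the authors' deposited table adjusted p = 0.0407), a call lost with the median of all transcripts set to 0. Over the 11 transcripts of INT1, 4 rose (36.4%) and none fell, against 20.7% higher and 17.8% lower among all transcripts. A riser of 2330 bases matched INT1 only weakly (E value 1.6e-14), and so did all 7 that did not pass.

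Kinases that build inositol phosphates formed the largest role among the 27 genes. By their most abundant transcript 6 of their 7 genes fell, where 30.9% of all matched loci were lower. VIH2, which makes inositol pyrophosphates, fell from 40.8 to 11.1 FPKM (by the authors' deposited table a log2 change of -1.88, adjusted p = 2.13e-32), and another VIH2 transcript, of 3850 bases, fell from 32.7 to 5.96 FPKM. IPK1, which completes phytate, fell from 24.6 to 12.8 FPKM, and ITPK4 from 3.23 to 1.23 FPKM. IPK2b fell from 29.8 to 15.8 FPKM, ITPK3 from 23.5 to 13.7 FPKM and ITPK1 from 10.6 to 6.79 FPKM, ITPK1 losing its call with equal totals. Over its 10 transcripts ITPK1 summed to 21.9 and 18.5 FPKM, a log2 ratio of -0.25 against -0.65 for the main transcript by the authors' deposited table. MIK, the inositol kinase, did not pass at 1.97 and 2.68 FPKM. PIS1, which puts inositol into phospholipid, rose in its main transcript from 5.34 to 12.9 FPKM. Its transcripts of 1716 bases (8.99 to 3.30 FPKM) and 1454 bases (6.61 to 2.04 FPKM) fell, and the remaining one did not pass. The sum of its 4 transcripts had a log2 ratio of -0.30.

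**Figure D4:**
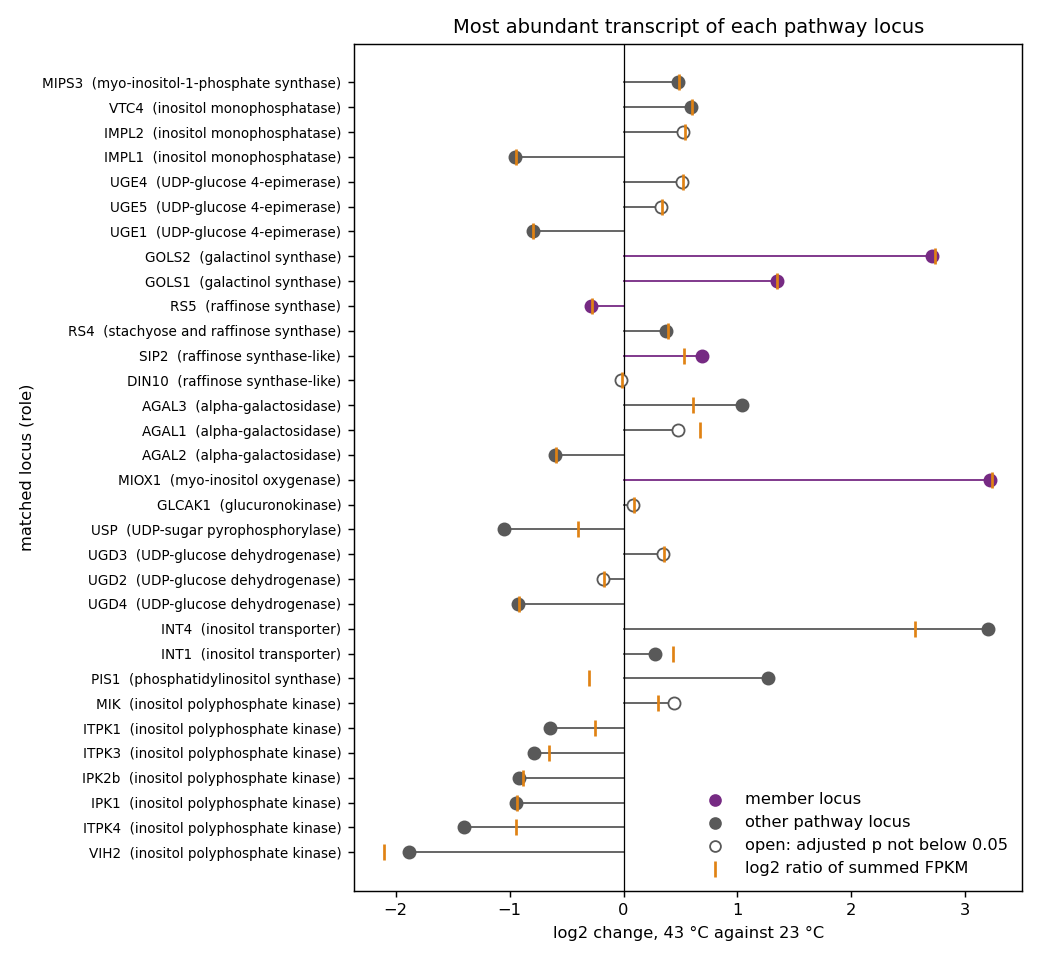
Deposited log2 change of 43 °C against 23 °C (x axis) of the most abundant transcript of the 5 listed genes (purple) and 27 other pathway genes (grey), by role; open points did not pass, and orange ticks give the log2 ratio of FPKM summed over all transcripts of the gene. MIOX1 (3.22), INT4 (3.20) and GOLS2 (2.70) lie farthest to the right, and 6 of 7 inositol polyphosphate kinases lie to the left as filled points.

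The samples are whole leaves, in which fewer cells of a type and less RNA per cell cannot be told apart. Transcripts of 4 of 8 green leaf markers were found, RBCS1A, RBCS3B, LHCB1.3 and PPDK, with 27093 FPKM in all in the cool and 12244 FPKM in the hot leaves. All 4 fell in their most abundant transcript, where 30.9% of all matched loci were lower. Over their 11 transcripts 9 fell and 2 did not pass, against 17.8% lower among all transcripts. An LHCB1.3 transcript of 1100 bases was among those that did not pass, at 2912 and 2722 FPKM. Galactinol and raffinose synthesis is placed in phloem companion cells in some species, and all 4 phloem markers were found: SUC2, a sucrose loader, went from 207 to 55.3 FPKM, PP2-A1 from 56.6 to 13.9 FPKM and the main SEOR1 transcript from 9.97 to 2.71 FPKM, all lower, while the main AHA3 transcript did not pass at 56.0 and 48.9 FPKM. The phloem list summed to 343 FPKM in the cool and 133 FPKM in the hot leaves. By the authors' deposited table the log2 change of RS5 was only -0.28, a call lost with equal totals, against -1.91 for SUC2. GOLS1 and GOLS2 were higher. The part of phloem content in these values was not tested. Guard cell markers summed to 22.3 and 17.5 FPKM over 3 genes, but none passed as lower and KAT1 rose from 1.39 to 3.36 FPKM in its main transcript. Xylem markers summed to 71.2 and 37.8 FPKM over 2 genes that moved apart: XCP1 fell from 60.5 to 18.5 FPKM, and IRX3 rose from 3.62 to 6.395 FPKM in its main transcript.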

How the data were processed

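RNA from 8 leaf libraries was sequenced, 4 per growth temperature, with groups taken from the sample titles. The submitters' processing notes name CASAVA 1.8.2 and Bowtie2 but no role for either; assembler, counting tool and test were not given in the sources used here. Per the file headers, the authors deposited FPKM at each temperature, a log2 fold change (hot over cool leaves) with its p-value and FDR, and each transcript's best TAIR10 protein by BLASTx (E value at most 1e-06). FPKM values moved in steps of 0.0025 (within 1e-06), the step of a mean over 4 values with 2 decimals, and were taken as such means. Benjamini-Hochberg adjustment of the deposited p-values across the 46492 transcripts gave the FDR column to within 3.2e-07.

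The 9 genes, the 45 further pathway genes and the marker genes were chosen with earlier results of these data known. Calls are the authors' adjusted p at 0.05, since values per library, for which limma had been planned, were not in the table analysed. Whether that p rests on the spread between plants is not stated. All 17 transcripts are described; of other pathway genes, the rule named the most abundant of each role and the strongest passing changes. Further pathway genes and transcripts were named after their values were seen. For scaling alternatives, a standard error was worked back from each deposited p as if from a normal test, and p-values were adjusted again over all transcripts. On simulated data whose p-values came from a normal test, the code gave back the known answer. That cannot show whether the step holds for the deposited p, since the authors' test is not known. Python 3.11.15, pandas 2.3.3 and scipy 1.17.1 were used.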

Additional observations from a re-analysis of the deposited data

How the results depend on the processing

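No paired analysis was possible because the table holds 1 mean per temperature, and for the same reason no replicate could be left out. The 4 genes that rose by their most abundant transcript passed at a threshold of 0.01, with equal totals and with median centring; at a mean FPKM of at least 5, GOLS2 was not tested and the other 3 passed. Pseudocounts and the E value limit of 1e-30 leave the authors' p as it is and so do not test these calls. A pseudocount of 5 reduced the log2 change of GOLS2 to 0.87, of GOLS1 to 0.75 and of MIOX1 to 2.56, and a pseudocount of 1 that of GOLS2 to 1.86. The number of lower transcripts, 2, became 1 at a threshold of 0.01, at a mean FPKM of at least 5 and with equal totals. The number of lower genes, 1, became 0 at a threshold of 0.01 and with equal totals, through RS5. Direction reversed with equal totals for the SIP2 transcript of 3125 bases (log2 change 0.21), DIN10 (0.23) and UGD2 (0.075), with median centring for GLCAK1 (-0.0125), and for PIS1 when its transcripts were summed (-0.30). Summing kept the direction of the other 31 genes. For genes with a single transcript, among them GOLS1, GOLS2, RS5 and MIOX1, that outcome was fixed, since the sum is that transcript. Among genes with several transcripts, summing moved 9 by more than the standard error worked back from the p. INT4 moved to 2.56 and USP to -0.40, both by over 1.5-fold. The sum of SIP2 without its longest transcript was added after seeing the data. Depth is unknown, so a call missed among scarce transcripts shows no absence of change.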

Other observations

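Heat shock factors of class A are known to induce galactinol synthase genes in Arabidopsis, and their transcripts were looked up after the values of GOLS1 and GOLS2 had been seen. The most abundant of 17 HSFA2 transcripts did not pass at 5.32 and 6.85 FPKM, and 12 others fell. Among all transcripts 20.7% were higher and 17.8% lower. All 12 carry one name stem (comp49837_c0), and how reads were shared among them is not known, so they are not 12 separate results. The sum over all HSFA2 transcripts was 31.6 FPKM in the cool and 12.5 FPKM in the hot leaves. HSFA1D rose from 9.48 to 12.7 FPKM in its single transcript (by the authors' deposited table a log2 change of 0.41, adjusted p = 0.0125). The most abundant of 11 HSFA3 transcripts, of 3280 bases, did not pass at 3.305 and 3.995 FPKM. Another 4, all scarce, rose, and 7 in all did not pass. How reads were shared among the HSFA3 transcripts is not known either. All of them summed to 6.25 FPKM in the cool and 9.67 FPKM in the hot leaves. HSFA1A, by a transcript of 378 bases, did not pass at 5.28 and 6.19 FPKM, and 3 HSFA1E transcripts did not pass either.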
